A study of Mus musculus with 16 samples.

Results

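The genes described here are those encoded by the mitochondrial genome, taken as every gene whose deposited name starts with mt-, in cerebral cortex of 16 individually sequenced mice. There were 15 of them among 22880 genes in the deposited table: 13 protein-coding genes, both ribosomal RNA (rRNA) genes and 0 transfer RNA (tRNA) genes. Of the 15, 9 passed the filter on low values, which asks for a normalized count of 10 or more in 4 or more libraries, and 6 did not. The mice were F1 animals of a C57Bl6/J x Sv129 background, and each of the 4 groups held 4 mice. KO_SD mice lacked the BK channel, a potassium channel opened by calcium and by voltage, and gentle handling kept them awake for 4 h after the lights came on. KO_BL mice lacked the channel and were left undisturbed. WT_SD mice were wild type littermates kept awake in the same way, and WT_BL mice were undisturbed wild type littermates. All mice were housed in pairs, and cortex was collected 4 h after light onset (zeitgeber time 4). The sources used here do not give ages, sexes or the deleted part of the gene. A replicate number after the group name marks a single library.

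Mitochondrial DNA is a small circle that is transcribed from both strands into long precursors. In the usual scheme tRNAs lie between the other genes and are cut out, which frees the rRNAs and the mRNAs. The rRNAs form the small and large subunits of the mitochondrial ribosome, which translates the protein-coding genes into core subunits of complexes I, III, IV and V of oxidative phosphorylation. Nearly all of these genes are read from one strand, and mt-Nd6 is the protein-coding gene read from the other. All other subunits, the transcription machinery and the RNA-processing enzymes come from nuclear genes. Cortex relies on oxidative phosphorylation for the ATP that neurons spend on ion pumping and synaptic transmission.

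Recovered depth ran from 15.9 to 30.5 M reads in KO_SD, 8.76 to 27.1 M in KO_BL, 14.3 to 25.5 M in WT_SD and 17.8 to 24.2 M in WT_BL. Kcnma1, which encodes the pore-forming subunit of the BK channel, had normalized counts of 432.2 to 2004 in KO_SD, 1425 to 2156 in KO_BL, 822.7 to 1583 in WT_SD and 1151 to 1889 in WT_BL. The gene-level count therefore did not separate the genotypes, and it does not check the labels because the deleted part of the gene is unknown here. Knockout below means the libraries labelled as such. All 10 of 10 markers of cortical neurons were in the tested set. Their summed normalized counts were 145346 to 187297 over all libraries but WT_BL 3, which had 196813. This does not tell cortex from its neighbours. For sleep deprivation in wild type, 11 of 11 striatal markers and 10 of 11 hippocampal markers were in the tested set too. KO_SD 4 stood apart, with a summed normalized count of 75140 over 36 nuclear genes of complex I against 38306 to 55810 in the other 15 libraries. The fold changes, medians, shares and ratios of knockout cortex that it moved most are given with and without it.

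The 15 genes fell into very unequal levels. The 8 with the highest mean were also the 8 genes with the highest mean normalized count of the whole table, from mt-Co1 at a mean of 336200 over 16 libraries to mt-Rnr1 at 80232. mt-Nd6 was ranked 5880 at a mean of 694.1. The other 6 genes were close to 0. Summed over all 16 libraries, 85 reads were recovered for mt-Atp6 and 64 for mt-Co3. mt-Atp6, the higher of the 2 ATP synthase genes, had 7, 1, 3 and 4 reads in KO_SD 1 to 4, 0, 7, 6 and 0 in KO_BL 1 to 4, 5, 7, 4 and 10 in WT_SD 1 to 4 and 14, 3, 4 and 10 in WT_BL 1 to 4. The sums were 50 reads for mt-Co2, 11 for mt-Atp8, and 9 each for mt-Nd3 and mt-Nd4l. No library held more than 14 reads of any of them. mt-Nd3 was at 0 in 12 libraries and mt-Nd4l in 9. A count of 0 allows up to 3 reads in a library, equal to a normalized count of 1.90 to 6.68, and this limit covers counting error only.

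The 6 low genes lie side by side on the mitochondrial genome (GRCm38), from mt-Co2 at chrM:7013-7696 through mt-Atp8, mt-Atp6, mt-Co3 and mt-Nd3 to mt-Nd4l at chrM:9877-10173. Annotated genes on both sides, mt-Co1 at chrM:5328-6872 and mt-Nd4 at chrM:10167-11544, had mean normalized counts of 336200 and 89972. The GENCODE M21 annotation places 7 unprocessed pseudogenes at chr1:24611535-24616197 on the minus strand, in the order of a mitochondrial stretch from within mt-Co1 to within mt-Nd4. The 5 copies of low genes matched them over all aligned bases, as did Gm28439, the copy of the first 876 bases of mt-Nd4. A stretch near the beginning of mt-Nd3, a complex I subunit, is shown with its chromosome 1 copy because none of the 342 aligned bases differs. The alignment starts at base 4 of mt-Nd3, and the bases before it did not align with the copy. A stretch of mt-Co1 is shown with its copy because it holds the single difference found within aligned bases, A1066T. That position counts from the first base of the mt-Co1 transcript, and a capital marks it in both. Of the 492 bases of this copy 483 were aligned, and differences outside them were not counted.
mt-Nd3, bases 4 to 93, chrM:9462-9551, plus strand: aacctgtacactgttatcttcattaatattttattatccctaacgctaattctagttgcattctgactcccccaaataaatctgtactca
Gm28438, bases 4 to 93, chr1:24613027-24613116, minus strand: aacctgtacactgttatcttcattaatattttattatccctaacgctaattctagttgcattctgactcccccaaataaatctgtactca
mt-Co1, bases 1063 to 1122, chrM:6390-6449, plus strand: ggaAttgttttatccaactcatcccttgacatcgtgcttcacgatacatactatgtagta
Gm29216, bases 10 to 69, chr1:24616129-24616188, minus strand: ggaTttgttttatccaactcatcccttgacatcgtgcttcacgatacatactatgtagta

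Shared sequence was measured as the share of all 50-base windows of a transcript that also occur in a GENCODE transcript of a nuclear gene. That share was 100% for mt-Co2, 99.9% for mt-Co3, 99.5% for mt-Atp6, 98.8% for mt-Nd4l and 98.0% for mt-Nd3. It was 62.2% for mt-Nd4 and 51.1% for mt-Co1, 8.2% for mt-Nd2, 7.6% for mt-Nd5 and 1.0% for mt-Rnr2. mt-Rnr1, mt-Nd1, mt-Nd6, mt-Cytb and mt-Atp8 shared no window. The low genes thus included all 5 with a share of at least 98.0%, and none of the other genes with a shared window was low. mt-Atp8, a small subunit of ATP synthase, was the low gene without a match. It lies between mt-Co2 and mt-Atp6, which are 230 bases apart, and the chromosome 1 copies of those genes are 233 bases apart. The sequence between the copies was not analysed here. Its full coding sequence is shown because its last 43 bases, in capitals, are also the first bases of mt-Atp6.
mt-Atp8, bases 1 to 204, chrM:7766-7969, plus strand: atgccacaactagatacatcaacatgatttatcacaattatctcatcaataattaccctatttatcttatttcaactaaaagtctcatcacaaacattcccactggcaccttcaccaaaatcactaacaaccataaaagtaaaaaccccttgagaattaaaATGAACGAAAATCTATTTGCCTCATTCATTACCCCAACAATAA

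None of the 7 copies had a row in the deposited table. The sources used here do not say how reads that match both places were assigned, and its part in the levels of the low genes, mt-Co1 and mt-Nd4 was not tested.

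**Figure D1:**
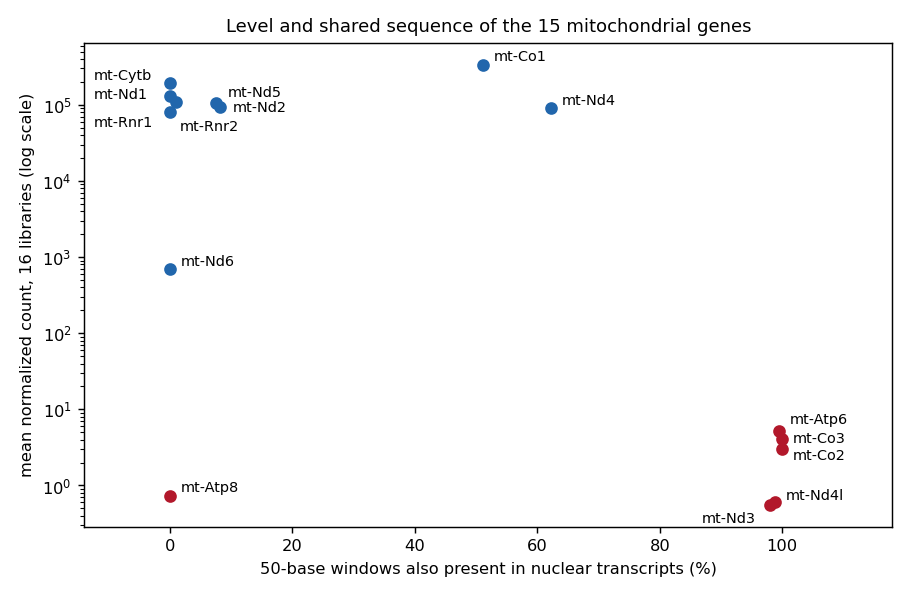
Mean normalized count over 16 libraries (log axis) against the percentage of 50-base windows of each mitochondrial transcript that also occur in nuclear transcripts, for all 15 genes. Red points have a mean below 10 and blue points a higher mean; 5 of the 6 red points lie at 98.0% or more, and mt-Atp8 lies at 0.

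Per length, in the authors' FPKM values, mt-Co1, the catalytic subunit of complex IV, was highest at a mean of 11248 over 16 libraries. mt-Cytb of complex III followed at 8667 FPKM and mt-Nd1 of complex I at 7122 FPKM. mt-Nd2, another complex I subunit, averaged 4678 FPKM. The small-subunit rRNA mt-Rnr1 averaged 4328 FPKM and the large-subunit rRNA mt-Rnr2 averaged 3508. The complex I subunits mt-Nd4 and mt-Nd5 averaged 3359 and 3021 FPKM. mt-Nd6, also of complex I, averaged 68.9 FPKM, below every other gene that passed the filter. Neighbours in this order overlapped in their range over the 16 libraries, such as mt-Nd2 (3762 to 5652 FPKM) and mt-Rnr1 (2866 to 8422 FPKM), except for mt-Nd1 above mt-Nd2 and mt-Nd5 above mt-Nd6. Compared within each library, mt-Co1 was always above mt-Cytb, mt-Cytb above mt-Nd1 and mt-Rnr1 above mt-Rnr2. The labels give total RNA as the molecule, and the sources used here do not give how RNA was selected. Annotated nuclear rRNA filled 354 rows, of which 61 held any read, and these rows summed to a normalized count of 32.2 to 64.1 per library.

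The 15 genes together took 6.30 ± 1.03% of recovered reads in KO_SD, 5.36 ± 0.61% in KO_BL, 6.20 ± 0.54% in WT_SD and 5.63 ± 0.39% in WT_BL (SD, n = 4 each). Single libraries ran from 4.86% in KO_BL 4 to 7.54% in KO_SD 4, and both sleep-deprived groups overlapped with their baseline groups. The rRNA genes alone took 1.25 ± 0.47% in KO_SD, 0.728 ± 0.073% in KO_BL, 1.13 ± 0.15% in WT_SD and 0.767 ± 0.089% in WT_BL. Without KO_SD 4 the rRNA share of KO_SD was 1.03 ± 0.23% (SD, n = 3), and that of all 15 genes was 5.89 ± 0.75%. The protein-coding genes took 5.05 ± 0.58% in KO_SD, 4.63 ± 0.54% in KO_BL, 5.08 ± 0.42% in WT_SD and 4.86 ± 0.45% in WT_BL. In bulk tissue, fewer cells of a type and less RNA per cell cannot be told apart, and this holds for every level and share given here.

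After sleep deprivation, both mitochondrial rRNAs were higher in wild type cortex, while the coding genes read from the same strand stayed within the spread between mice. mt-Rnr1 had normalized counts of 97980, 101800, 97910 and 79210 in WT_SD 1 to 4, against 53380, 67260, 60410 and 68190 in WT_BL 1 to 4. Every sleep-deprived library was above every baseline library. mt-Rnr1 rose by a log2 fold change of 0.60 ± 0.10 (SE), or 1.51-fold, at an adjusted p of 0.0209 (limma, Benjamini-Hochberg over 14310 genes). mt-Rnr2 had 131400, 137900, 126800 and 99700 in WT_SD 1 to 4, against 75630, 92360, 83790 and 90890 in WT_BL 1 to 4. Its groups did not overlap either. mt-Rnr2 rose by 0.53 ± 0.11 (SE) on the log2 scale, or 1.44-fold, at an adjusted p of 0.0391 in the same limma fit. Thus 2 of the 9 tested genes passed the threshold of 0.05, beside 1.36% of all genes tested, and groups that did not overlap were found for 2 of the 9, beside 10.3% of all genes.

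The rRNA calls depended on the model and on single libraries. On all 8 libraries both were lost in limma without trend and robust steps, at adjusted p of 0.0642 for mt-Rnr1 and 0.0974 for mt-Rnr2. With quantile normalization the log2 fold changes were 0.42 and 0.24 at adjusted p of 0.104 and 0.276 by limma. In a limma model of all 16 libraries, which shares 1 error over the 4 groups, the adjusted p was 0.175 and 0.264. Both calls held under the other 12 alternatives that kept all libraries, at adjusted p of 2.33e-05 to 0.0256 for mt-Rnr1 and 0.000538 to 0.0469 for mt-Rnr2. By limma, the adjusted p of mt-Rnr1 was 0.0585 without WT_SD 1, 0.0945 without WT_SD 3, 0.0551 without WT_BL 1 and 0.0746 without WT_BL 3, and it stayed below 0.05 without any of the other 4. mt-Rnr2 passed only without WT_SD 4 (adjusted p 0.00549), and leaving out any of the other 7 gave 0.0694 to 0.153. The log2 fold change stayed between 0.52 and 0.68 for mt-Rnr1 and between 0.47 and 0.63 for mt-Rnr2. The starts of both rRNAs are shown, since these genes passed the test, which used counts over the whole gene. mt-Rnr1 occupies chrM:70-1024 and mt-Rnr2 chrM:1094-2675 on the plus strand.
mt-Rnr1, bases 1 to 100, chrM:70-169: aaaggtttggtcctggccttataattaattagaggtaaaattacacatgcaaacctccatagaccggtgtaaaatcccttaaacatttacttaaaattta
mt-Rnr2, bases 1 to 100, chrM:1094-1193: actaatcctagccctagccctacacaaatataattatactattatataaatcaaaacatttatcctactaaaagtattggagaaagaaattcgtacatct

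**Figure D2:**
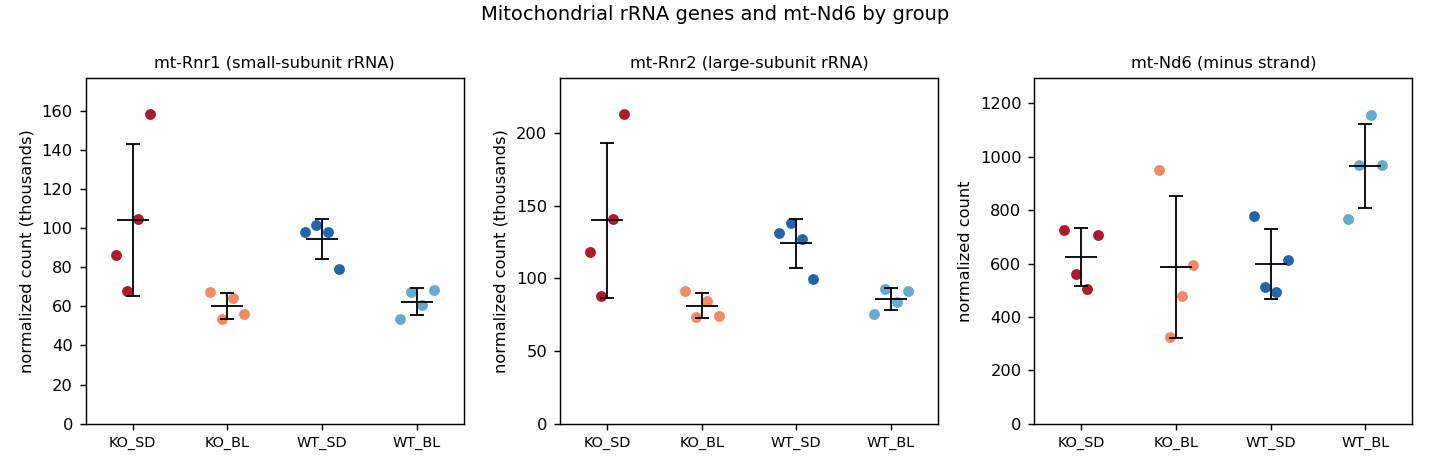
Normalized counts of mt-Rnr1, mt-Rnr2 and mt-Nd6 in each library by group (points, 4 mice each), with mean and SD (bars). The rRNA points of WT_SD lie above all of WT_BL, KO_SD 4 is the highest rRNA point at 158200 and 212800, and the mt-Nd6 points of WT_BL (767.1 to 1156) lie mostly above those of WT_SD (491.7 to 778.4).

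mt-Nd6, the complex I subunit read from the opposite strand, was the other gene with a large difference in wild type. It had normalized counts of 778.4, 512.3, 491.7 and 612.9 in WT_SD 1 to 4, against 767.1, 970.1, 1156 and 969.6 in WT_BL 1 to 4. The groups overlapped through WT_SD 1 and WT_BL 1, and the remaining 3 libraries of each lay apart. The log2 fold change was -0.70 ± 0.16 (SE) at an adjusted p of 0.0540 by limma, just outside the threshold. With total-count scaling, limma-voom and DESeq2 it passed, at adjusted p of 0.0494, 0.0455 and 0.00192, and without WT_SD 1 it passed in limma at 0.0274. Over its other alternatives the adjusted p ran from 0.0510 to 0.255. mt-Nd6 ends opposite the end of mt-Nd5, and the last 40 bases of each transcript are shown with the 14 bases that lie opposite each other in capitals. The sources used here do not say whether counting used strand, so reads in those bases cannot be assigned to either gene. For the same reason, the strand of origin is unknown for reads over the whole length of mt-Nd6. The part of plus-strand reads in its count was not tested. Its mean normalized count was 694.1, against 106717 for mt-Nd5.
mt-Nd5, bases 1785 to 1824, chrM:13526-13565, plus strand: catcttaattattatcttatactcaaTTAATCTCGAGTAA
mt-Nd6, bases 480 to 519, chrM:13552-13591, minus strand: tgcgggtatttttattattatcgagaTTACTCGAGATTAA

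None of the other 6 coding genes that passed the filter, all on the plus strand, passed the test in wild type. mt-Co1 had normalized counts of 335100, 381800, 339500 and 340100 in WT_SD 1 to 4, against 343700, 283500, 376800 and 326900 in WT_BL 1 to 4. Its log2 fold change was 0.07 ± 0.09 (SE). mt-Cytb, the cytochrome b of complex III, had 192200, 228500, 191600 and 181300 in WT_SD 1 to 4, against 191500, 165400, 210400 and 183300 in WT_BL 1 to 4. mt-Nd1 had 137300, 152800, 127900 and 122200 in WT_SD 1 to 4, against 131100, 116600, 144500 and 128500 in WT_BL 1 to 4. The groups of all 3 overlapped. Log2 fold changes of the 6 ran from -0.02 for mt-Nd5 to 0.15 for mt-Nd2, with adjusted p of 0.480 to 0.944 by limma. The median log2 fold change was 0.07 over the 9 tested genes and 0.06 over the 7 coding genes, beside -0.00127 over all genes tested. Without WT_SD 2 these medians were 0.01 over the 9 genes and -0.00907 over the 7, and without WT_BL 2 they were 0.000470 and 0.000430.

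**Figure D3:**
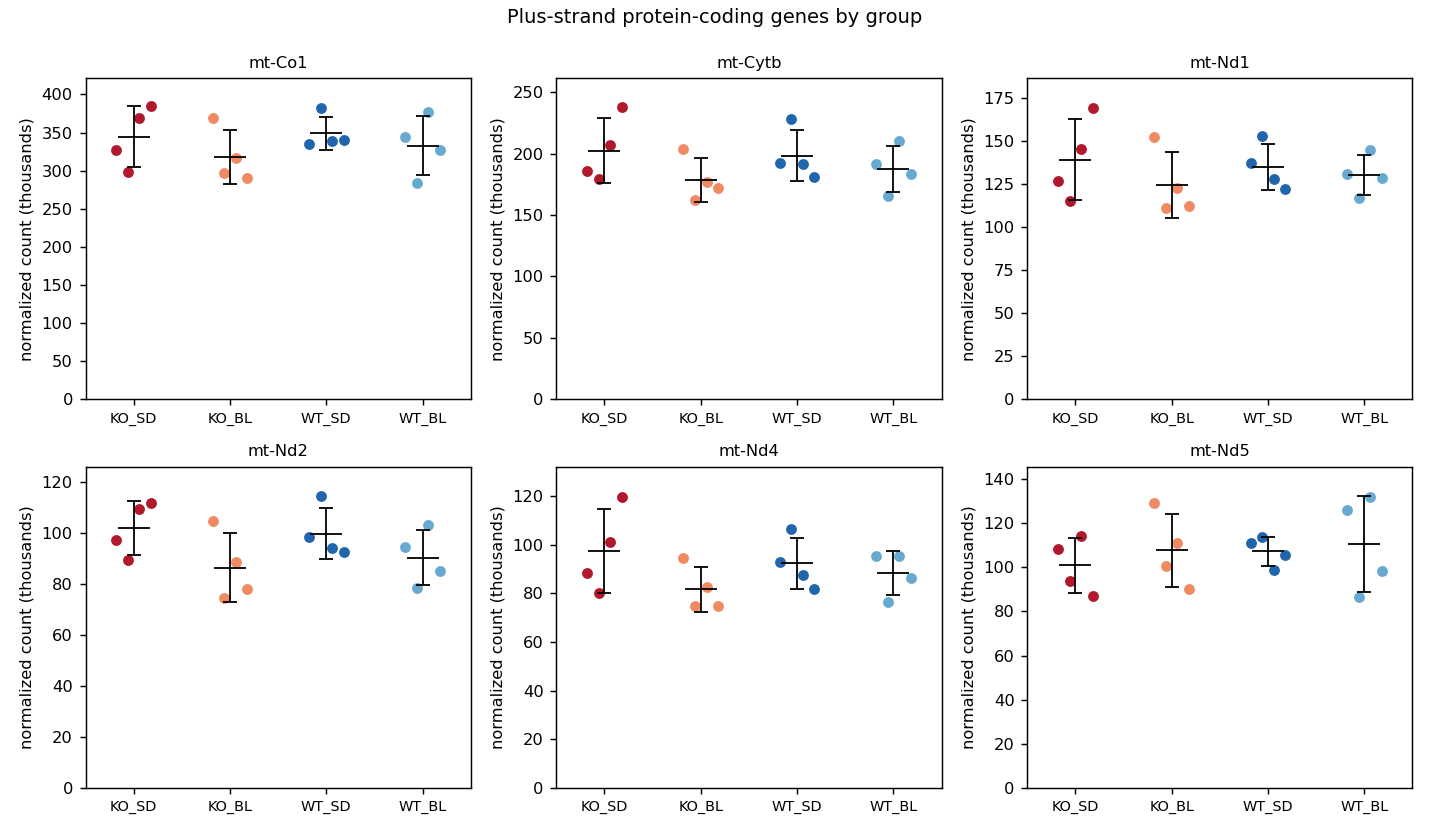
Normalized counts of the 6 plus-strand coding genes that passed the filter, in each library by group (points, 4 mice each), with mean and SD (bars). The groups of every gene overlap within each genotype, and mt-Co1 (283500 to 384800) is the highest.

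In knockout cortex the same rRNAs were higher after sleep deprivation in most mice, with a wider spread, and no gene passed the test. mt-Rnr1 had normalized counts of 86050, 68050, 104400 and 158200 in KO_SD 1 to 4, against 67170, 53630, 64160 and 55910 in KO_BL 1 to 4. These groups did not overlap, although KO_SD 2 exceeded KO_BL 1 only slightly. The log2 fold change was 0.73 ± 0.22 (SE) at an adjusted p of 0.239 (limma, Benjamini-Hochberg over 14318 genes). mt-Rnr2 had 117800, 87660, 140700 and 212800 in KO_SD 1 to 4, against 91370, 73390, 84630 and 74350 in KO_BL 1 to 4. Here KO_SD 2 lay below KO_BL 1. Its log2 fold change was 0.72 ± 0.22 (SE) at an adjusted p of 0.254 by limma. KO_SD 4 held the highest rRNA values of all 16 libraries, and without it the log2 fold changes were 0.50 ± 0.15 for mt-Rnr1 and 0.49 ± 0.16 for mt-Rnr2 (SE), with adjusted p of 0.200 and 0.228 by limma.

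By limma 0 of the 9 genes passed in knockout, beside 0.23% of all genes tested. At an unadjusted p under 0.05, 2 did, both rRNAs. DESeq2 on recovered reads called those 2, while edgeR's quasi-likelihood test and limma-voom called 0. Groups that did not overlap were found for 1 of the 9, beside 8.24% of all genes. mt-Nd6 had 725.6, 561.1, 506.0 and 707.5 in KO_SD 1 to 4, against 951.0, 324.6, 477.9 and 594.5 in KO_BL 1 to 4. The baseline mice spanned the sleep-deprived ones on both sides, and the log2 fold change was 0.18 ± 0.28 (SE). mt-Co1 had 327000, 298100, 369300 and 384800 in KO_SD 1 to 4, against 368800, 297400, 316500 and 289900 in KO_BL 1 to 4. mt-Cytb had 186000, 179000, 206900 and 238200 in KO_SD 1 to 4, against 203500, 161900, 176600 and 172400 in KO_BL 1 to 4. mt-Nd1 had 127000, 115000, 145500 and 169400 in KO_SD 1 to 4, against 152500, 111300, 122500 and 112500 in KO_BL 1 to 4. For these 3 genes KO_SD 4 was the highest of all 16 libraries, and the groups overlapped. Log2 fold changes of the 6 coding genes ran from -0.09 for mt-Nd5 to 0.24 for mt-Nd2 and mt-Nd4. The median was 0.18 over the 9 tested genes, beside -0.00212 over all genes tested. It was 0.12 without KO_SD 4 and 0.32 without KO_BL 1.

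**Figure D4:**
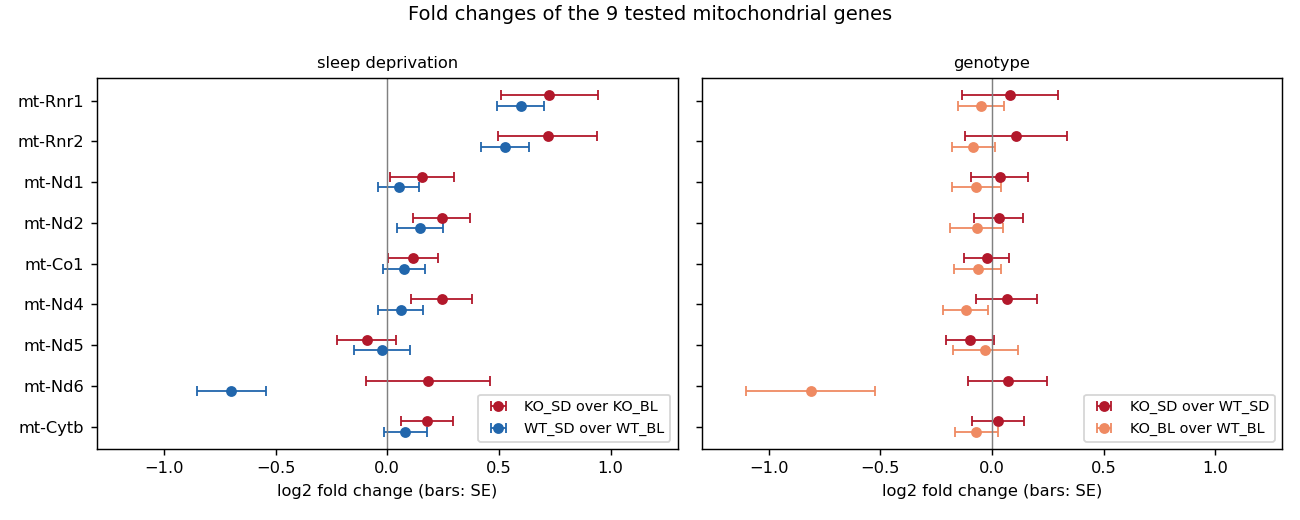
Log2 fold change and SE of the 9 tested mitochondrial genes for sleep deprivation in knockout and wild type (left) and for knockout against wild type after sleep deprivation and at baseline (right). Both rRNAs lie between 0.53 and 0.73 for sleep deprivation, the wild type point of mt-Nd6 lies at -0.70, and its baseline genotype point lies at -0.81.

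Between genotypes no mitochondrial gene passed the test. At baseline, mt-Nd6 had 951.0, 324.6, 477.9 and 594.5 in KO_BL 1 to 4, against 767.1, 970.1, 1156 and 969.6 in WT_BL 1 to 4. KO_BL 1 lay among the wild type mice and the other 3 lay below them. The log2 fold change was -0.81 ± 0.29 (SE) at an adjusted p of 0.982 by limma. The other 8 tested genes ran from -0.12 for mt-Nd4 to -0.03 for mt-Nd5 on the log2 scale. By limma 0 of the 9 passed, beside 0.0139% of all genes tested, and 1 (mt-Nd6) had an unadjusted p under 0.05. DESeq2, edgeR and limma-voom called 0. None of the 9 had groups that did not overlap, beside 1.8% of all genes. The untested mt-Co3 had groups that did not overlap, at normalized counts of 0 to 2.03 in KO_BL and 2.62 to 8.74 in WT_BL, each of at most 8 reads.

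After sleep deprivation, the fold changes of knockout over wild type ran from -0.10 for mt-Nd5 to 0.11 for mt-Rnr2 on the log2 scale. By limma 0 of the 9 genes passed, beside 0% of 14280 genes tested. At an unadjusted p under 0.05 the count was also 0, and DESeq2, edgeR and limma-voom called 0. No gene of the 9 had groups that did not overlap, beside 1.34% of all genes. The difference was 0.08 ± 0.22 for mt-Rnr1 and 0.11 ± 0.23 for mt-Rnr2 (SE), and without KO_SD 4 it was -0.14 ± 0.15 and -0.12 ± 0.17. The difference between genotypes in the response to sleep deprivation, fitted as an interaction over all 16 libraries, passed for 0 of the 9 genes by limma, beside 0% of 14604 genes. It was 0.13 ± 0.26 (SE) for mt-Rnr1 and 0.19 ± 0.27 (SE) for mt-Rnr2 on the log2 scale, and -0.10 ± 0.19 and -0.04 ± 0.20 without KO_SD 4. For mt-Nd6 it was 0.88 ± 0.35 (SE) at an adjusted p of 0.9999 by limma. mt-Nd6 was the single one of the 9 with an unadjusted p under 0.05 there. DESeq2, edgeR and limma-voom called 0 of the 9. The sleep deprivation and genotype comparisons share groups: WT_BL enters both comparisons in which the fold change of mt-Nd6 was strongly negative.

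Ratios within a library do not depend on its scaling. The reads of both rRNAs over those of all mitochondrial coding genes gave 0.218, 0.182, 0.234 and 0.334 in KO_SD 1 to 4, against 0.150, 0.155, 0.166 and 0.159 in KO_BL 1 to 4. Every KO_SD library was above every KO_BL library. The ratio was 0.237, 0.218, 0.239 and 0.194 in WT_SD 1 to 4, against 0.131, 0.198, 0.136 and 0.175 in WT_BL 1 to 4. WT_SD 4 lay just below WT_BL 2. The mean was 0.242 ± 0.065 in KO_SD and 0.158 ± 0.007 in KO_BL, and 0.222 ± 0.021 in WT_SD and 0.160 ± 0.032 in WT_BL (SD, n = 4 each). Without KO_SD 4 the KO_SD mean was 0.211 ± 0.027 (SD, n = 3). These ratios are described without a test. mt-Rnr2 over mt-Rnr1 stayed between 1.26 and 1.42 in all 16 libraries.

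Among coding genes, the share of mt-Nd2 in the mitochondrial coding reads was 10.3 ± 0.2% in KO_SD against 9.58 ± 0.38% in KO_BL, and 10.1 ± 0.2% in WT_SD against 9.58 ± 0.16% in WT_BL (SD, n = 4 each). Sleep-deprived and baseline libraries did not overlap in either genotype, and mt-Nd2 was the only coding gene of which this held. The share of mt-Nd4 was apart in knockout alone, at 9.35% or more in KO_SD against 9.21% or less in KO_BL. By normalized count, the groups of mt-Nd2 and mt-Nd4 overlapped in both genotypes. Groups did not overlap by that measure for 10.3% of all genes in wild type and 8.24% in knockout. No such percentage was computed for shares. Shares of 1 total depend on each other, and no test was made. mt-Nd4 and mt-Nd5 lie next to each other, and mt-Nd5 over mt-Nd4 was 1.23, 1.18, 1.13 and 0.726 in KO_SD 1 to 4, against 1.37, 1.35, 1.34 and 1.21 in KO_BL 1 to 4. It was 1.19, 1.07, 1.13 and 1.29 in WT_SD 1 to 4, against 1.32, 1.13, 1.38 and 1.14 in WT_BL 1 to 4. KO_SD 4 thus had the lowest ratio, while its rRNA ratio was the highest of all. Without it the KO_SD mean of mt-Nd5 over mt-Nd4 was 1.18 ± 0.05 (SD, n = 3), against 1.32 ± 0.07 in KO_BL (SD, n = 4). mt-Cytb over mt-Co1 stayed between 0.533 and 0.619.

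**Figure D5:**
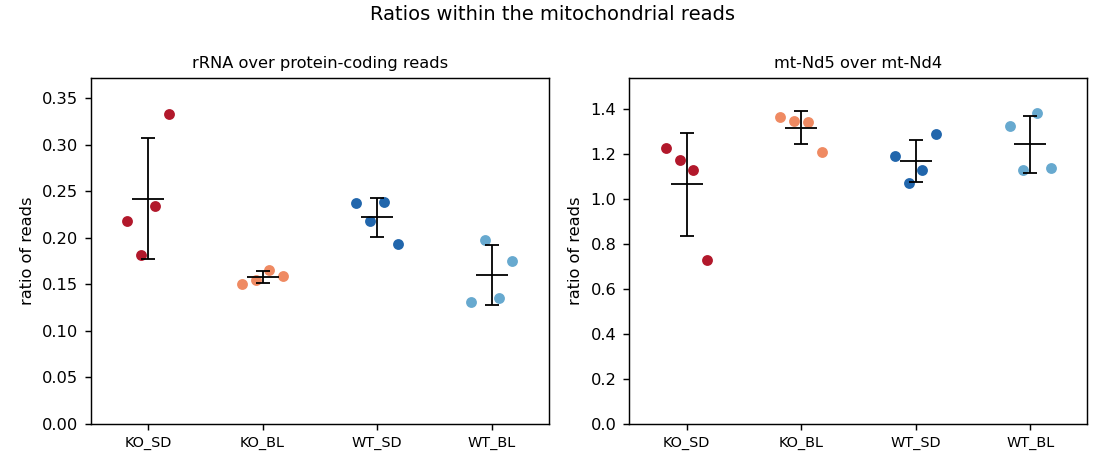
Reads of both rRNA genes over reads of all mitochondrial coding genes (left), and reads of mt-Nd5 over those of mt-Nd4 (right), in each library by group (points), with mean and SD (bars). KO_SD 4 has the highest rRNA ratio (0.334) and the lowest mt-Nd5 ratio (0.726).

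Of the nuclear genes for the same complexes, none passed the test by limma for sleep deprivation in either genotype, and their knockout values moved with KO_SD 4. For complex I, 0 of 36 tested genes passed, and the median log2 fold change was 0.24 in knockout and 0.13 in wild type. Ndufab1, the acyl carrier protein, had 0.46 ± 0.15 in knockout and 0.34 ± 0.09 in wild type (SE). For complex III, 0 of 9 passed, with medians of 0.14 in knockout and 0.10 in wild type. Uqcrh, a hinge subunit of that complex, had 0.44 ± 0.21 in knockout and 0.38 ± 0.09 in wild type. For complex IV, 0 of 11 passed, with medians of 0.30 in knockout and 0.19 in wild type. For complex V, 0 of 15 passed, with medians of 0.24 in knockout and 0.16 in wild type. DESeq2 called 1 gene each of complexes I and III higher in wild type and 0 in knockout. The medians over all genes tested were -0.00212 in knockout and -0.00127 in wild type. Without KO_SD 4 the knockout medians were 0.05 for complex I, -0.03 for complex III, 0.11 for complex IV and 0.08 for complex V. Genes with positive fold changes in knockout then numbered 22 of 36, 4 of 9, 8 of 11 and 11 of 15, against 35, 8, 11 and 13 with it. Without KO_SD 1 the knockout medians were higher, at 0.43 for complex I, 0.42 for complex III and 0.44 for complex V. In wild type, leaving out WT_BL 1 gave 0.04 for complex I, 0.05 for complex III and 0.10 for complex V. The summed normalized counts of complex I were 38306, 48211, 52755 and 75140 in KO_SD 1 to 4, against 42204 to 47396 in KO_BL. KO_SD 4 also had the highest sum of the other 3 lists among all 16 libraries, at 29679 for complex III, 60152 for complex IV and 92463 for complex V.

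Of the nuclear factors that make and process mitochondrial RNA, 1 gene passed, Fastkd5 in wild type, beside 1.36% of all genes tested there and 0.23% in knockout. Of 17 tested genes for transcription and replication of mitochondrial DNA, 0 passed in either genotype, with medians of 0.08 in knockout and 0.03 in wild type. Of 30 tested genes for processing and stability of mitochondrial RNA, 0 passed in knockout and 1 rose in wild type, with medians of 0.06 and 0.04. A count of 1 in 30 is near the share of all genes called in wild type, and nothing is read from it about this list. Without KO_SD 4 the knockout medians were 0.02 for transcription and replication and 0.00708 for processing and stability. Fastkd5, needed in human cells for maturation of mitochondrial transcripts without flanking tRNAs, had a log2 fold change of 0.57 ± 0.10 (SE) at an adjusted p of 0.0224 in wild type by limma. Leaving out any 1 library but WT_SD 4 raised this to 0.0526 to 0.101, and the model of all 16 libraries gave 0.143. In knockout Fastkd5 had 0.41 ± 0.21 (SE) at an adjusted p of 0.448. Slirp, which stabilises mitochondrial mRNAs together with Lrpprc, had 0.51 ± 0.22 in knockout and 0.33 ± 0.13 in wild type (SE). Nsun3 of the same list, with a smaller p than Slirp by limma in both genotypes, went the other way. It had -0.37 ± 0.12 in knockout and -0.31 ± 0.11 in wild type (SE). In this list 19 fold changes were positive and 11 negative in knockout, and 17 and 13 in wild type. Of 11 regulators of mitochondrial biogenesis, 0 passed in either genotype, with medians of -0.08 in knockout and -0.09 in wild type. Ppargc1b, a transcriptional coactivator, had -1.02 ± 0.33 in knockout and -0.55 ± 0.22 in wild type (SE). Gabpb1, with a smaller p than Ppargc1b by limma in both genotypes, was higher, at 0.39 ± 0.12 in knockout and 0.37 ± 0.12 in wild type (SE). Nrf1 was also higher, at 0.38 ± 0.12 and 0.30 ± 0.12 (SE). Among these regulators 3 fold changes were positive and 8 negative in knockout, and 5 and 6 in wild type. In the 2 comparisons of genotype 0 genes of these 7 lists passed. The lists were chosen with earlier results of these data known.

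Markers of neighbouring regions and other cells are given beside these values, and 2 of them passed the test by limma, Alas2 and Ly6c1 in wild type. Among the 10 cortical neuron markers, 0 passed for sleep deprivation, and 7 had negative fold changes in each genotype. Their medians were -0.07 in knockout and -0.11 in wild type. Of 11 striatal markers, 0 passed and all 11 had negative fold changes for sleep deprivation, with medians of -0.84 in knockout and -1.20 in wild type. DESeq2 called 5 of the 11 lower in wild type. Their summed normalized counts were 5426 to 12579 in KO_SD, 6588 to 19984 in KO_BL, 4813 to 7338 in WT_SD and 6141 to 25611 in WT_BL. Of the hippocampal markers, 9 were tested in knockout and 10 in wild type, with medians of 0.40 and 0.56 and 0 passed. Their sums overlapped, at 4082 to 5876 in KO_SD, 4145 to 5484 in KO_BL, 5554 to 7860 in WT_SD and 3739 to 6765 in WT_BL. All 8 oligodendrocyte markers had positive fold changes, with medians of 0.38 in knockout and 0.23 in wild type, and 0 passed. Their sums were 71739 to 121518 in KO_SD, 53035 to 81605 in KO_BL, 70795 to 126417 in WT_SD and 55668 to 97087 in WT_BL. All 5 markers of blood had negative fold changes, with medians of -0.97 in knockout and -0.77 in wild type, and Alas2 of erythroid heme synthesis fell by 1.14 ± 0.19 (SE) in wild type at an adjusted p of 0.0165 by limma. Their sums were 564.5 to 2184 in KO_SD, 1140 to 5024 in KO_BL, 1012 to 2114 in WT_SD and 1564 to 3309 in WT_BL. Of 8 endothelial markers, 0 passed in knockout and 1 in wild type, Ly6c1, which rose by 0.76 ± 0.13 (SE) in wild type at an adjusted p of 0.0165 by limma. The list medians were -0.29 in knockout (-0.04 without KO_SD 4) and -0.03 in wild type. By limma, Alas2 lost its call without WT_SD 3, WT_BL 3 or WT_BL 4 (adjusted p 0.0535 to 0.0698) and in the model of all 16 libraries (0.116). Ly6c1 lost it without WT_SD 3, WT_BL 2 or WT_BL 3 (adjusted p 0.0562 to 0.0766). Astrocyte medians were 0.03 in knockout and 0.17 in wild type, microglial ones -0.00163 and 0.03, and choroid plexus ones 0.49 and 0.02, with 0 passed in each list. The summed choroid plexus markers stood far apart in single libraries, at 5828 in WT_SD 4, 11663 in WT_BL 1 and 3250 in WT_BL 2, against 111.4 to 1274 in the other 13 libraries. Their wild type median was 0.76 without WT_BL 1 and -0.58 without WT_BL 4. The part of tissue makeup in the rRNA and mt-Nd6 results was not tested.

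In the authors' deposited table the log2 ratio runs the other way, baseline over sleep deprivation and wild type over knockout. At a false discovery rate below 0.05, the authors' deposited table called 3 of the 9 genes for wild type and 2 for knockout. In the authors' deposited table the knockout values of the log2 ratio were -0.59 for mt-Rnr1 and -0.58 for mt-Rnr2, at false discovery rates of 0.0397 and 0.0461. The wild type values in the authors' deposited table were -0.53 for mt-Rnr1, -0.47 for mt-Rnr2 and 0.55 for mt-Nd6, so mt-Nd6 was called lower after sleep deprivation there. For knockout against wild type, the authors' deposited table called 0 of the 9 at baseline and 0 after sleep deprivation.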

How the data were processed

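Per the labels' protocols, cortex RNA was purified on columns with DNase I and read on a HiSeq2500. Per the submitters' processing notes, builds mm10 and GRCm38 and the tools RSEM 1.2.19 and edgeR are listed without roles. The sources used here do not give the aligner, annotation release, strandedness, RNA selection or treatment of reads with several matches.

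The normalized counts are a signal: per the file headers and the low values, the authors divided each library's counts by 1 factor. The FPKM values, the log2 ratio, the p-value and the false discovery rate were used as deposited by the authors. Values from 1 of the 4 sheets were used for all fits, since factors differed between sheets by at most 0.263%. A further 48 columns of per-sample values were not used. Whole reads were recovered by dividing by the smallest step, and all low values (100%, up to 20 reads) were whole to within 0.1 read. Replicates differed beyond counting noise, with a chi-square of at least 7.94 per degree of freedom. Each library is a separate animal. Batches, litters and cages are not given.

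Each comparison was tested with limma 3.58.1 (R 4.3.3; trend and robust) on log2(normalized count + 1). Tests were two-sided at 0.05, with Benjamini-Hochberg adjustment over all genes that reached a normalized count of 10 in 4 or more libraries. This scale understates changes of low genes. Pairwise fits held 8 libraries and the interaction 16, making 5 comparisons. Alternatives were other scalings, pseudocounts and filters, limma-voom, edgeR 4.0.16 and DESeq2 1.42.0 on recovered reads, a replicate block, and fits without single libraries. The fits were also run on simulated counts, drawn for each gene on its own without library-wide shifts such as that of KO_SD 4. That run does not bear on how the calls depend on such libraries, and its outcome is not given here. Sequences and positions came from GENCODE M21 transcripts on GRCm38, whose chromosome M holds 37 genes. The rule for naming genes asked for values in every library of both rRNAs, mt-Nd6, the highest gene of each complex and any gene past the threshold, and at most 4 genes a list by smallest p. mt-Atp6, named for complex V, is given by its reads. The members, lists and tests were chosen with earlier results of these data known.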

Additional observations from a re-analysis of the deposited data

Results flagged for a closer look

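A library far from the other 3 of its group was found in 7 of 122 groups of 4 values (Dixon's test), and chance gives about 1 in 20. The normalized count of mt-Co1 was 381800 in WT_SD 2, against 335100 to 340100 in the other WT_SD libraries. mt-Nd3 had a normalized count of 2.025 in KO_BL 3 and 3.113 in WT_BL 2, with 0 in the other 3 libraries of each group, which is a matter of 2 and 3 reads. mt-Nd5 over mt-Nd4 was 1.209 in KO_BL 4, against 1.343 to 1.366 in the other KO_BL libraries. mt-Nd5 also took 11.04% of the mitochondrial coding reads in KO_BL 4, against 12.26% to 12.37% in the others. mt-Cytb over mt-Co1 was 0.5834 in WT_BL 2, against 0.5572 to 0.5607 in the others. The share of mt-Nd2 in the mitochondrial coding reads was 9.342% in WT_BL 4, against 9.62% to 9.677% in the others.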

How the results depend on the processing

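For sleep deprivation in wild type, the count of mitochondrial genes past the threshold was 2 in the main analysis. It was 0 with quantile normalization, 0 with limma without trend and robust steps and 0 with all 16 libraries in 1 model, and 3 with total-count scaling, limma-voom and DESeq2. Leaving out 1 library gave 0 to 2. The model of all 16 libraries shares 1 error over 4 groups, and quantile normalization gives the highest ranks, which these genes hold, the same values in every library by construction. The cause of the other changes was not tested. For sleep deprivation in knockout the count was 2 with DESeq2 and 0 under each of the other 16 alternatives outside leaving out 1 library, and leaving out 1 library gave 0. For both genotype comparisons and the interaction it was 0 under every alternative run. All 129 alternative values of the median over the tested genes moved by less than the spread between replicates. That spread was 0.138 to 0.194 on the log2 scale and exceeded the size of the main median in each comparison. A median could thus change sign within it, so little is read from this count. Between genotypes after sleep deprivation the median was 0.03, and -0.05 without KO_SD 4. Over the whole table, leaving out 1 library gave 46 to 508 calls in wild type and 0 to 69 in knockout for sleep deprivation.

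With reads of protein-coding genes as denominator, where rRNA leaves the numerator by construction, the mitochondrial share was 5.12% in KO_SD, 4.67% in KO_BL, 5.13% in WT_SD and 4.90% in WT_BL.

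The direction of 26 values of single genes, all with an adjusted p above 0.05, turned round. With quantile normalization the log2 fold change was -0.15 for mt-Nd4 in wild type, -0.0506 for mt-Nd1, -0.0742 for mt-Nd2 and -0.105 for mt-Nd4 in knockout, and -0.0566 for mt-Rnr1 in knockout against wild type after sleep deprivation. Without KO_SD 4, KO_SD 1 and KO_BL 1 together, an alternative added after seeing the data, it was 0.0471 for mt-Nd5 in knockout. The same alternative gave -0.144 for mt-Nd6, -0.154 for mt-Rnr1 and -0.148 for mt-Rnr2 between genotypes after sleep deprivation, and -0.0507 for mt-Rnr1 and -0.00373 for mt-Rnr2 in the interaction. Leaving out 1 library gave, for wild type, -0.00907 to 0.104 for mt-Nd1, -0.011 to 0.116 for mt-Nd4 and -0.135 to 0.067 for mt-Nd5. It gave -0.0652 to 0.451 for mt-Nd6 in knockout and -0.121 to 0.00493 for mt-Rnr1 at baseline. Between genotypes after sleep deprivation it gave -0.017 to 0.204 for mt-Nd6, -0.144 to 0.262 for mt-Rnr1 and -0.119 to 0.307 for mt-Rnr2. In the interaction it gave -0.0954 to 0.310 for mt-Rnr1 and -0.0357 to 0.391 for mt-Rnr2. The values of -0.144 for mt-Rnr1 and -0.119 for mt-Rnr2 between genotypes after sleep deprivation came without KO_SD 4. Both were smaller than their SE, and neither passed the test by limma.

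The replicate numbers did not pair the mice throughout. Correlations of same-numbered libraries ran from -0.14 to 0.25 in wild type and from -0.25 to 0.38 in knockout. There 2 of 8 and 4 of 8 libraries correlated best with their own number. Between genotypes they ran from -0.40 to 0.32 after sleep deprivation and from -0.16 to 0.29 at baseline, with 2 of 8 and 5 of 8. Differently numbered libraries reached 0.10 at most in the baseline comparison of genotypes. All libraries numbered 1 correlated positively with each other, at 0.17 to 0.38, while the other numbers held correlations of both signs. Whether a number marks a shared batch or litter was not tested. With the replicate block, 2 mitochondrial genes passed in wild type (230 genes in all) and 0 in each other comparison, so it changed no call of these genes. For the low genes, with at most 14 reads in a library, small changes are not detectable at this depth. With no filter on low values, mt-Co3 had log2 fold changes of 1.63 for sleep deprivation in knockout and -1.63 for knockout at baseline, at adjusted p of 0.354 and 0.952 by limma.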
